A study of Danio rerio with 9 samples.

Results

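The apelin receptor gene aplnrb (ENSDARG00000036670) was followed in newly made and in background RNA of early zebrafish (Danio rerio) embryos. It is 1 gene of the 8969 gene IDs with a value in each library, taken by its ID. All embryos were wild type of the AB strain, at the 128-cell, 256-cell or 512-cell stage. Labelled embryos were injected at the 1-cell stage with 4-thio-UTP (50 mM, 1 nl, in Tris buffer), a uridine analogue that new transcripts take up, and have 2 technical replicates per stage. Unlabelled embryos have 1 library per stage, and their RNA went through the same biotinylation and streptavidin purification. The injection protocol is given for all samples, so it is not stated whether the unlabelled embryos were mock-injected. The labels name whole embryos, so a change in the number of cells holding a transcript and a change in transcript per cell cannot be told apart.

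The apelin receptor is a G protein-coupled receptor of the cell surface. Its peptide ligands are Apelin (gene apln) and Apela, also called Toddler or Elabela (gene apela). In zebrafish, aplnrb and its paralogue aplnra are known for roles in the movement of mesendoderm cells during gastrulation and in the formation of heart progenitors. The first cleavages run largely on RNA laid down by the mother, and the genome is switched on in the course of the cleavage and blastula stages.

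Labelled aplnrb RNA was low at the 128-cell stage, 1 of the more abundant nuclear transcripts by the 512-cell stage, and close to 0 in every unlabelled library. Levels are in FPKM, the sequenced fragments of a gene scaled to its transcript length and to the mapped total. At the 128-cell stage aplnrb stood at 3.68 FPKM in labelled replicate 1 and 0.879 FPKM in replicate 2. At the 256-cell stage it stood at 52.2 and 9.20 FPKM, and at the 512-cell stage at 253 and 49.0 FPKM. Both 256-cell values lay above both 128-cell values, and both 512-cell values lay above both 128-cell values. The 256-cell and 512-cell groups overlapped, since 512-cell replicate 2 lay just under 256-cell replicate 1. In the unlabelled libraries aplnrb stood at 0.237, 0.158 and 0.383 FPKM in stage order, under every labelled value.

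**Figure D1:**
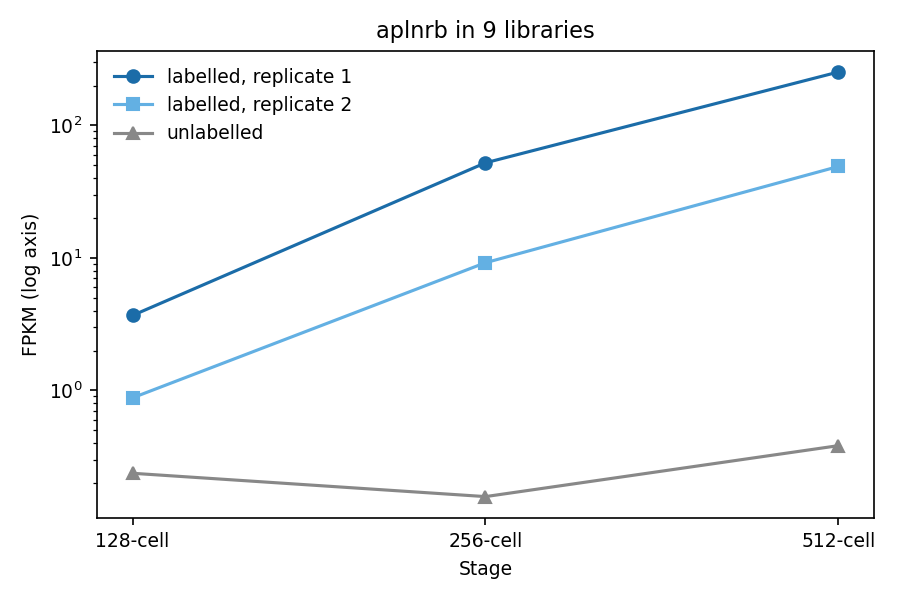
FPKM of aplnrb (log axis) by stage, with 1 point per library: 2 labelled technical replicates and 1 unlabelled library at each stage. Both labelled lines climb from 3.68 and 0.879 FPKM at 128-cell to 253 and 49.0 FPKM at 512-cell, while the unlabelled line stays between 0.158 and 0.383 FPKM.

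The place of aplnrb among all genes moved in the same way. Ranked from the highest of 8969 IDs, it was 3616th and 6140th in the labelled 128-cell replicates. It was 325th and 714th at the 256-cell stage, and 156th and 202nd at the 512-cell stage. In the unlabelled libraries it was 8210th, 8047th and 6233rd in stage order. With every library brought to a nuclear FPKM total of 1000000, aplnrb stood at 2.33 and 0.407 at labelled 128-cell, 20.4 and 1.95 at 256-cell and 91.6 and 8.61 at 512-cell, and between 0.0634 and 0.212 without the label. On that scale the 128-cell and 256-cell groups overlapped, since 256-cell replicate 2 lay under 128-cell replicate 1, and so did the 256-cell and 512-cell groups. At each labelled stage replicate 2 had the larger nuclear FPKM sum but the smaller median FPKM. At 512-cell the sums were 2767000 and 5688000, and the medians 3.1 and 1.42 FPKM, in replicate order. This scaling therefore set the replicates of aplnrb further apart than in FPKM. The replicates were far apart in FPKM at the 512-cell stage but close in rank, and the 512-cell ranks of both were above both 256-cell ranks.

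From the 128-cell to the 512-cell stage aplnrb rose 68.8-fold between the libraries numbered replicate 1 and 55.7-fold between those numbered replicate 2. On the log2(FPKM + 1) scale the change was 5.35 ± 1.07 (SE, n = 2 technical replicates per stage; limma adjusted p = 0.0154). Log2 changes are given here with the all-gene median taken off, which was -0.11 in this comparison, while the test itself is on the deposited scale. The 7438 tested genes included 369 higher at the 512-cell stage, which is 4.96%, and 0 lower by limma (16 lower at an unadjusted p under 0.05). Left out in turn, 512-cell replicate 1 and 128-cell replicate 2 brought the number called to 210 and 245. With size factors 558 genes were called, and with 1 nuclear total 1. By size of change aplnrb was 28th of the 7438 genes. Technical replicates measure the spread of the procedure, not of embryos, and p-values carry that limit. Without labelled 128-cell replicate 2 the adjusted p was 0.0575, and with all libraries brought to 1 nuclear FPKM total it was 0.199; the change was then 4.93 ± 1.49 and 5.16 ± 1.59.

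The rise was spread over both steps between stages. From 128-cell to 256-cell the FPKM rose 14.2-fold (replicate 1) and 10.5-fold (replicate 2), and from 256-cell to 512-cell 4.86-fold and 5.32-fold. The log2 change was 2.94 ± 1.07 in the first step (limma adjusted p = 0.739, unadjusted p = 0.0171) and 2.37 ± 1.07 in the second (adjusted p = 1, unadjusted p = 0.0552), with 2 technical replicates per stage. Neither step passed the threshold on its own in this fit, which compares group means and leaves the replicate gap in the spread. Both passed with a replicate block, given in the closing section, where the pairing it assumes was not settled. In the fit of group means 0 of 7438 genes (0%) passed in either step by limma. At an unadjusted p under 0.05 there were 246 higher and 10 lower in the first step, and 326 higher and 9 lower in the second. The second step minus the first was -0.58 ± 1.85 on the log2 scale, with a 95% interval from -4.62 to 3.47 (limma adjusted p = 1; 14 genes higher and 10 lower at an unadjusted p under 0.05).

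In order of level, the groups ran from labelled 512-cell (mean log2(FPKM + 1) 6.82 ± 1.66, SD, n = 2) through labelled 256-cell (4.54 ± 1.68) to labelled 128-cell (1.57 ± 0.93). The unlabelled libraries followed at 0.47 (512-cell), 0.31 (128-cell) and 0.21 (256-cell), with no replicates. Of these neighbours, labelled 512-cell and 256-cell overlap. Labelled 128-cell replicate 2, at 0.91, lay closer to the unlabelled libraries than to its partner, at 2.23.

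Labelling was compared with no labelling at each stage to set labelled aplnrb beside the background of the purification. At the 128-cell stage the labelled replicates held 15.6 and 3.71 times the FPKM of the unlabelled library. The factors were 330 and 58.2 at the 256-cell stage, and 662 and 128 at the 512-cell stage. The ratios widened from stage to stage in both replicates, while the unlabelled values lay within 0.158 to 0.383 FPKM. The all-gene median of the log2 difference widened too, from -0.18 at 128-cell to 0.43 at 256-cell and 0.73 at 512-cell. Each ratio of aplnrb rests on 1 low unlabelled value, at unknown depth. FPKM is scaled within each library, so the ratios compare shares of separate purifications and not amounts of RNA. On the log2(FPKM + 1) scale the difference was 1.45 ± 1.22 at 128-cell (limma adjusted p = 1; 0.078% of 7697 tested genes were called higher). It was 3.90 ± 1.22 at 256-cell (adjusted p = 0.266; 1.13% called higher). At 512-cell it was 5.62 ± 1.22 (adjusted p = 0.018; 3.72% called higher). Each of these tests compares 2 labelled libraries with 1 unlabelled library, which is assumed to vary like the labelled ones. The 256-cell call depends on the libraries in the fit: it was not made without 256-cell replicate 1 (adjusted p = 0.221), and was made when any other labelled library was left out (adjusted p between 5.2e-05 and 0.015). The growth of the labelled difference from 128-cell to 512-cell was 4.14 ± 1.73 (limma adjusted p = 0.447, unadjusted p = 0.015), where 0% of genes passed and 563 were higher and 5 lower at an unadjusted p under 0.05. With 1 labelled library left out, the growth ranged from 3.36 to 4.93. Leaving out 1 replicate takes the replicate gap of that stage out of the spread, so a pass in such a fit adds no support.

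Over the 3 stages together, aplnrb was higher in labelled RNA by 3.65 ± 0.41 (limma, 3 labelled stage means against 3 unlabelled libraries with stage as a block, adjusted p = 3.15e-20). In that comparison 913 of 7697 genes were higher (11.9%) and 75 lower. Without the unlabelled 128-cell library 2860 genes were called in all, and 122 without the unlabelled 256-cell library; the difference of aplnrb was then 4.75 and 3.52 and passed in both. The small SE comes from the spread shared by all genes, since limma gave almost no weight to each gene's own spread. The 3 fitted differences of aplnrb, 1.26, 4.33 and 6.35 before the all-gene median is taken off, give an SE of 1.48 on their own. The labelled and unlabelled stage values do not overlap, and an exact two-sided permutation test of 3 against 3 gives p = 0.1, the lowest it can give. That test leaves out the stage block and takes the stages as exchangeable, so it does not match the fit. A permutation within stages was not run. With median-of-ratios size factors the limma adjusted p was 0.0613 at the same difference of 3.65.

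The authors' deposited tables with 1 value per stage hold aplnrb too. There it stood at 1.31 FPKM at 128-cell, 31.2 FPKM at 256-cell and 234 FPKM at 512-cell, 166th of 9436 genes at the last stage. The authors' deposited table of transcripts lists 1 transcript, ENSDART00000129643, with the same value as the gene at all 3 stages, so the value of the gene is that of a single listed isoform; the match is by value, as the tables do not pair genes with transcripts. The folds in these tables are larger than in the libraries, 23.8 for the first step, 7.48 for the second and 178 over both. The stage value of aplnrb in the authors' deposited table was 0.575 times the mean of its 2 libraries at 128-cell, 1.02 times at 256-cell and 1.54 times at 512-cell. The same ratio over all genes with at least 1 FPKM in both libraries had a median of 0.674, 1.08 and 1.49, and the range from the 5th to the 95th percentile was 0.543 to 0.8, 0.91 to 1.25 and 1.2 to 1.73. The ratio of aplnrb lay inside that range at each stage, near its lower end at 128-cell, where aplnrb itself was under 1 FPKM in replicate 2. How the stage values were scaled is not stated.

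Genes that end at the same level as aplnrb mostly did not start as low. Among the tested genes, 35 others had a mean log2(FPKM + 1) at labelled 512-cell within 0.5 of it. Their median at labelled 128-cell was 6.12, against 1.57 for aplnrb, and 29 of the 35 lay above it. In the unlabelled 512-cell library their median was 3.59, against 0.47 for aplnrb, and 34 of the 35 lay above it. Of the 35 genes, 8 were called higher at 512-cell than at 128-cell, which is 22.9%, beside 4.96% of all tested genes. The 35 were chosen by their 512-cell value, 1 side of that comparison, so this count leans towards genes that rose. Their median change from 128-cell to 512-cell was 0.59, and 7 had a larger change than aplnrb. In the second step alone, 1 of the 35 had a larger change.

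The nearest of these genes in level show what a similar 512-cell level can rest on. LAMP2, a lysosomal membrane protein, stood at 244 and 76.4 FPKM at labelled 128-cell and 273 and 51.2 FPKM at 512-cell, with 187, 127 and 68.1 FPKM in the unlabelled libraries in stage order. It was thus abundant in the purified RNA at every stage, with or without the label. HNRNPAB, an RNA-binding protein, and PAIP2B, which binds the poly(A)-binding protein, followed LAMP2 upwards in level. HNRNPAB stood at 260 and 97.0 FPKM at 128-cell and 223 and 66.8 FPKM at 512-cell, and PAIP2B at 261 and 104 FPKM, then 223 and 77.0 FPKM. Just under aplnrb, TENT5C, of a family of poly(A) polymerases, stood at 158 and 83.0 FPKM and then 182 and 65.4 FPKM, and cd2bp2 at 116 and 35.9 FPKM and then 214 and 54.1 FPKM. None of these 5 genes passed between 128-cell and 512-cell (limma adjusted p = 1 for each). Without the label, in stage order, cd2bp2 stood at 26.7, 12.6 and 7.64 FPKM and TENT5C at 160, 69.4 and 44.3 FPKM. HNRNPAB stood there at 94.5, 54.9 and 35.3 FPKM, and PAIP2B at 85, 44.6 and 28.3 FPKM. Over the 3 stages cd2bp2 was called higher in labelled RNA (2.21 ± 0.63, limma adjusted p = 0.00119). LAMP2, HNRNPAB, PAIP2B and TENT5C were not. The sixth neighbour, blf, a zinc-finger gene, was low at 128-cell like aplnrb, at 1.12 and 0.467 FPKM, and reached 161 and 77.5 FPKM.

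**Figure D2:**
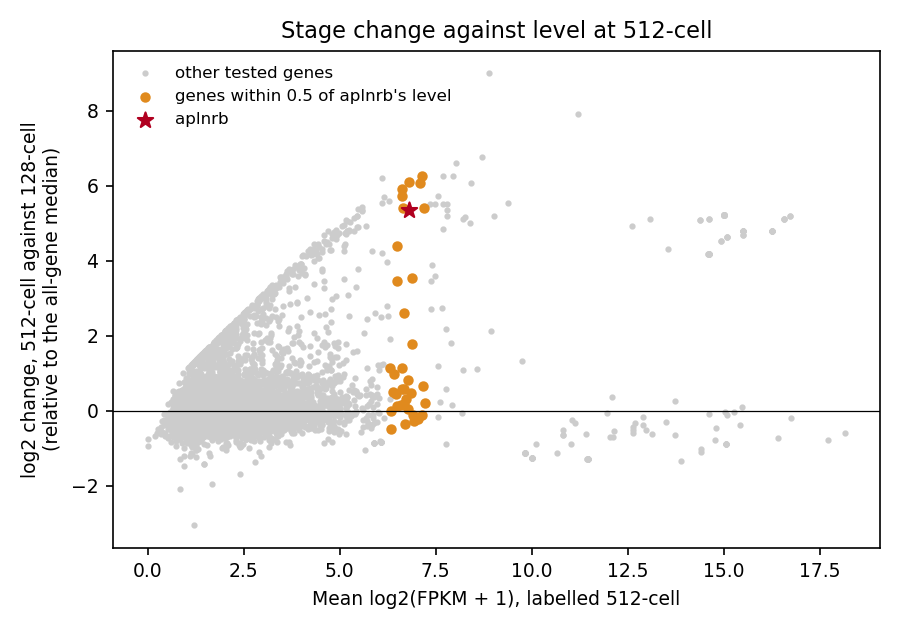
Log2 change from labelled 128-cell to 512-cell, relative to the all-gene median, against the mean log2(FPKM + 1) at labelled 512-cell, with 1 point per tested gene (7438). The 35 genes within 0.5 of the level of aplnrb (orange) spread from -0.48 to 6.27 with a median of 0.59 and an upper quartile of 3.51, and aplnrb (star) lies at 5.35 with 7 of them above it.

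The ligand gene apela rose with its receptor. apela (ENSDARG00000094729) stood at 0.110 and 0.152 FPKM at labelled 128-cell, 3.87 and 0.795 FPKM at 256-cell, and 37.4 and 9.98 FPKM at 512-cell. It was listed at 0 in the unlabelled 128-cell and 512-cell libraries and at 0.124 FPKM at 256-cell. The 512-cell values lay above all others, while the labelled 128-cell values lay on either side of the unlabelled 256-cell value. The change from 128-cell to 512-cell was 4.29 ± 0.70 (limma adjusted p = 0.00592, n = 2 technical replicates per stage). This gene entered the tests only through its later labelled values, so its calls lean towards a rise and towards the label. The change did not pass with 1 nuclear total. With each of the 6 labelled libraries left out in turn, the change ranged from 3.77 to 4.78. Against the unlabelled library at 512-cell the difference was 3.63 ± 0.81 (limma adjusted p = 0.0153), a test that rests on 1 unlabelled library, listed at 0 and assumed to vary like the labelled ones.

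Per transcript length, the receptor gene was ahead of the ligand gene in every labelled library. The FPKM of aplnrb was 33.4 and 5.79 times that of apela in the 128-cell replicates, 13.5 and 11.6 times at 256-cell, and 6.78 and 4.91 times at 512-cell. The ratio was lower at 512-cell than at 256-cell in both replicates. From 256-cell to 512-cell apela rose 9.65-fold and 12.6-fold, against 4.86-fold and 5.32-fold for aplnrb. No test of that difference was run. In the authors' deposited table of stage values apela stood at 0.134, 2.58 and 41.9 FPKM in stage order. Of 4 listed apelin signalling genes, 2 had values here, aplnrb and apela. The genes aplnra and APLN were not tested.

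**Figure D3:**
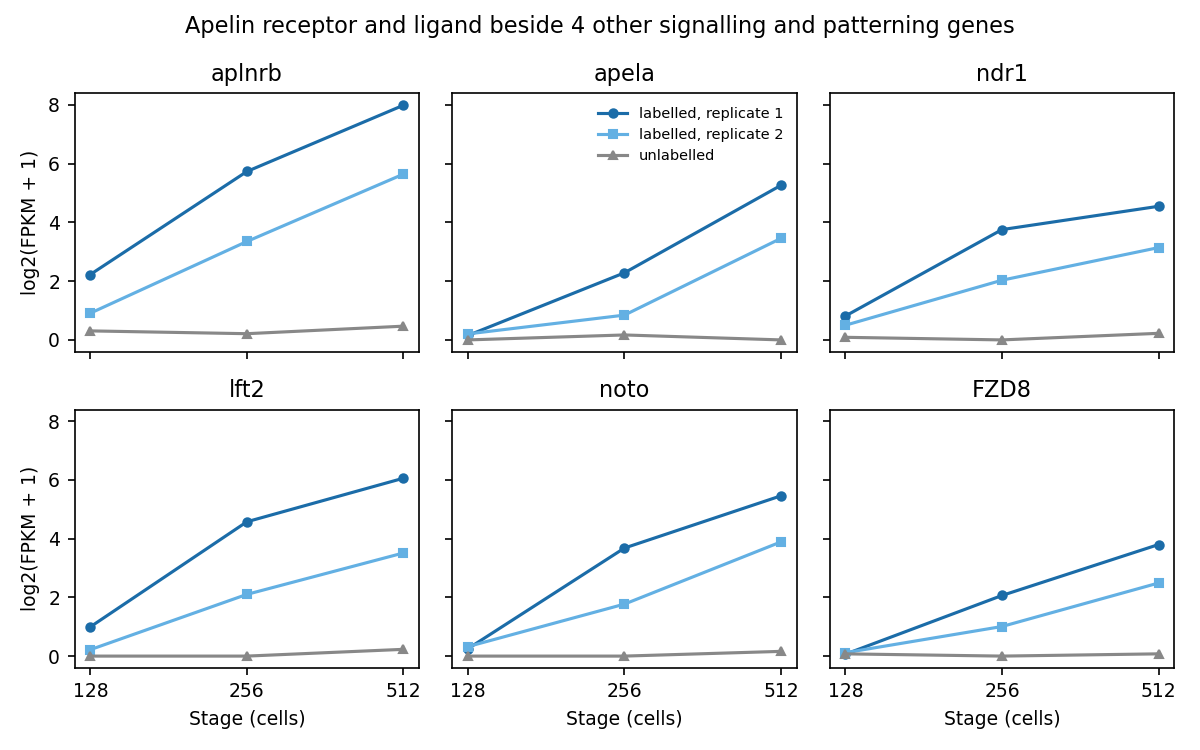
log2(FPKM + 1) by stage in the 2 labelled replicates and the unlabelled library for aplnrb, its ligand gene apela, the Nodal ligand ndr1, the Nodal inhibitor lft2, the axial mesoderm factor noto and a FZD8 (ENSDARG00000045444). In each panel the labelled lines climb and the unlabelled line stays near 0; aplnrb alone of the 6 is above 2 in a labelled library at 128-cell (2.23 in replicate 1).

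The intracellular partners of such receptors were read beside it. Of 29 listed G protein subunits, receptor kinases and arrestins, 8 had values, under 9 IDs, all tested. By limma 0 of 9 passed from 128-cell to 512-cell, beside 4.96% of all tested genes called higher, with changes between -0.34 and 0.15 and none at an unadjusted p under 0.05. A count of 0 among 9 is no departure from that share. GNAI2, the inhibitory alpha subunit through which the apelin receptor is known to signal, has 2 IDs. ENSDARG00000017294 stood at 7.21 and 2.76 FPKM at labelled 128-cell and 6.26 and 2.48 FPKM at 512-cell, with 10.2, 4.11 and 1.68 FPKM in the unlabelled libraries. The second, ENSDARG00000018174, changed by -0.34 ± 0.47 (adjusted p = 1). The smallest p-values in the list were those of this ID and of gna11a, GRK6 and gna11b, at -0.19 ± 0.64, -0.11 ± 0.50 and -0.09 ± 0.52 (limma adjusted p = 1 for each). ARRB2, a beta-arrestin, stood at 1.41 and 2.09 FPKM at 128-cell and 2.93 and 0.917 FPKM at 512-cell, with no separation of the stages. Over the 3 stages 1 of the 9, the gamma subunit GNG5, was higher in labelled RNA (0.95 ± 0.43, limma adjusted p = 0.0267), a share near the 11.9% of all tested genes.

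Among other G protein-coupled receptors, 2 IDs of the Frizzled family rose. Of 34 listed receptors 6 had values, under 8 IDs, and 7 IDs were tested. Of these 2 passed from 128-cell to 512-cell, beside 4.96% of all tested genes called higher, and the median of the 7 was 1.48. A gene near 0 at 128-cell enters the test only through its later values, so such counts lean towards genes that rose. The Wnt receptor gene FZD8 with the ID ENSDARG00000045444 stood at 0.0462 and 0.0834 FPKM at 128-cell, 3.18 and 1.01 FPKM at 256-cell and 12.9 and 4.61 FPKM at 512-cell, a change of 3.16 ± 0.57 (limma adjusted p = 0.00997). The FZD7 with the ID ENSDARG00000060004 reached 4.08 and 2.03 FPKM and changed by 1.92 ± 0.38 (adjusted p = 0.0178). Leaving out either labelled 128-cell library ended that call. Without a 512-cell library this FZD7 ID was not tested, and in the 4 other leave-out fits its change ran from 1.67 to 2.11. The other FZD8 ID had 2.21 ± 0.70 (adjusted p = 0.171) and F2R, a protease-activated receptor, 1.48 ± 0.38 (adjusted p = 0.0738). These 2 changed sides in some fits with 1 labelled library left out, where a pass adds no support. Their changes there ran from 1.24 to 1.65 for F2R and from 1.64 to 2.75 for the FZD8 ID. F2R was not tested without a 512-cell library either. The lysophosphatidic acid receptor gene LPAR2 stood at 66.0 and 18.1 FPKM at 128-cell and 91.6 and 20.8 FPKM at 512-cell. At labelled 512-cell aplnrb was the highest of these receptor genes in FPKM, whereas at 128-cell LPAR2 and 1 FZD7 ID were above it in both replicates.

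Apelin receptor signalling acts on mesendoderm, and genes of the Nodal pathway and its targets were read beside it. Of 28 listed genes 20 had values, under 21 IDs, of which 18 were tested and 6 rose from 128-cell to 512-cell, beside 4.96% of all tested genes. The median of the 18 was 0.80. The largest change was that of noto, from 0.189 and 0.251 FPKM to 42.9 and 13.8 FPKM (4.49 ± 0.77, limma adjusted p = 0.00719). lft2 changed by 4.28 ± 0.97, ndr1 by 3.29 ± 0.73 and the organizer gene GSC by 2.79 ± 0.69. The endoderm factor foxa3 changed by 2.33 ± 0.51 and the Bmp inhibitor chrd by 2.05 ± 0.41. All 6 were under 1 FPKM in both labelled 128-cell libraries. Each entered the test only through its later values, so the count of 6 among 18 leans towards genes that rose. With a 512-cell library left out, foxa3 and chrd were not tested, as no earlier library reached 1 FPKM for them. Without labelled 512-cell replicate 1 the adjusted p was 0.0539 for lft2, 0.0883 for ndr1 and 0.212 for GSC. Without labelled 128-cell replicate 2 it was 0.112 for ndr1 and 0.105 for GSC, and without replicate 1 it was 0.0559 for chrd. The Nodal receptor genes ACVR1B, ACVR2A and ACVR2B and the effector SMAD2 were present at every stage with no call. Of 14 listed genes of heart and vessel progenitors, 1 had values: GATA5 stood at most at 1.13 FPKM, in labelled 512-cell replicate 1, and was not tested.

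**Figure D4:**
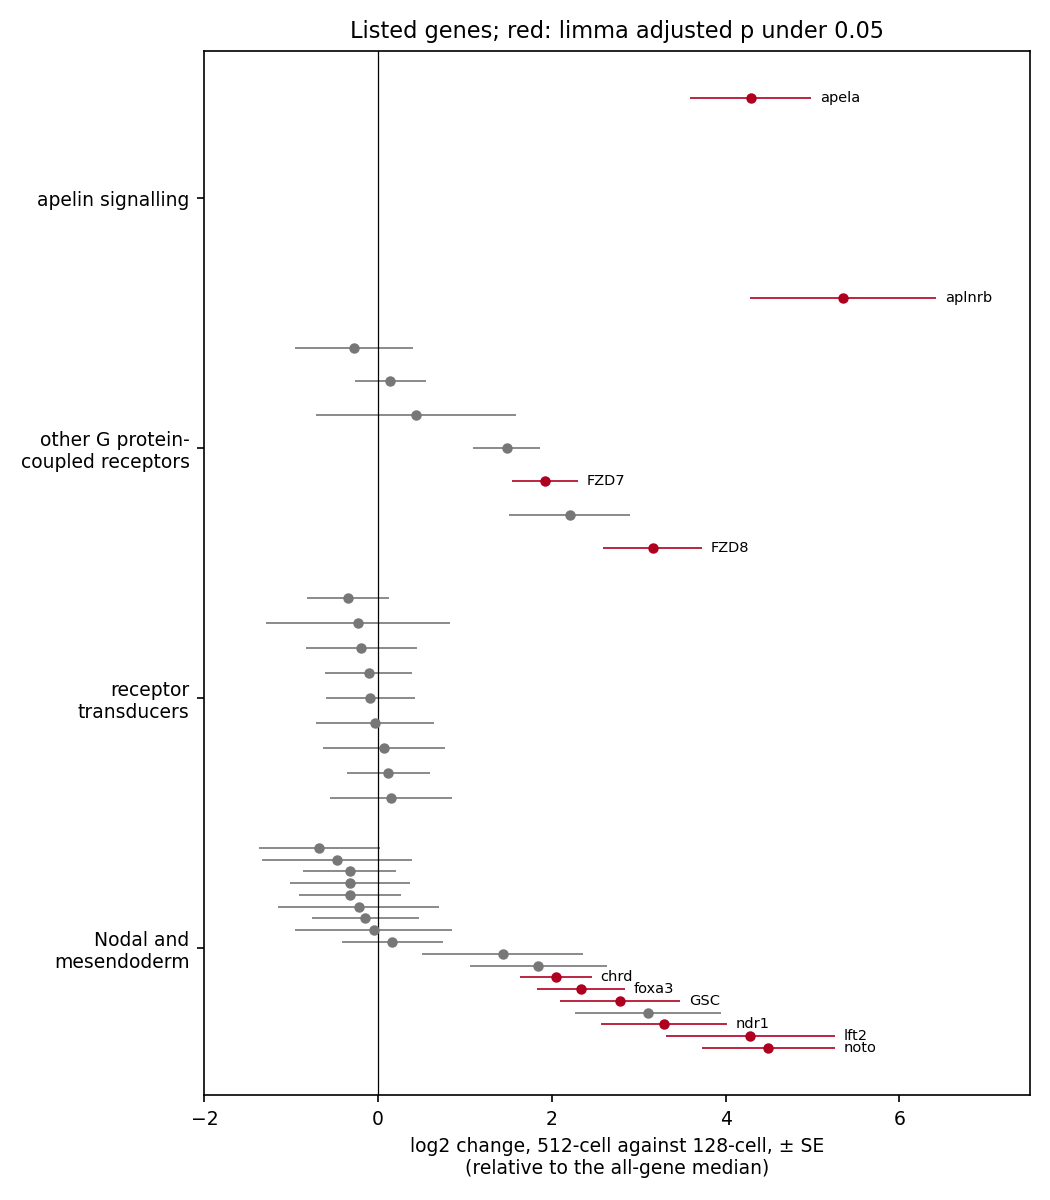
Log2 change from labelled 128-cell to 512-cell, relative to the all-gene median, with its SE, for each tested ID of 4 gene lists; red and named where limma's adjusted p is under 0.05. aplnrb (5.35) lies furthest to the right, apela is at 4.29, and the 9 receptor transducers lie between -0.34 and 0.15.

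Genes most like aplnrb across the libraries were sought by the root mean square difference of log2(FPKM + 1) over all 9 libraries. The nearest of 8968 other IDs was her11, a hairy-related repressor, at a difference of 0.39. Its FPKM was 1.72 and 0.46 at labelled 128-cell, 71.2 and 11.8 at 256-cell, and 201 and 46.5 at 512-cell. marcksl1b, a membrane-bound actin regulator, followed at 0.54, and grhl3, a grainyhead-like factor of surface epithelia, at 0.60. GADD45B, a stress-response protein, was at 0.65, blf at 0.66, drll.3 at 0.68, the Iroquois homeobox gene irx7 at 0.78 and the Wnt ligand gene wnt11f2 at 0.90. Only 17 IDs lay under 1, and apela, lower at each stage, was 161st at 1.99. All 8 named genes passed from 128-cell to 512-cell, which follows in part from their likeness to aplnrb and is no support for it. Of the 8, GADD45B lost its call without labelled 128-cell replicate 2 (adjusted p = 0.352) or 512-cell replicate 1 (0.0786), irx7 without 128-cell replicate 2 (0.054), and wnt11f2 without either (0.086 and 0.0853).

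The gap between technical replicates was wide for aplnrb. Replicate 1 exceeded replicate 2 by 4.19-fold at 128-cell, 5.67-fold at 256-cell and 5.17-fold at 512-cell. In FPKM + 1 these gaps were 2.49-fold, 5.21-fold and 5.09-fold, against a median over all tested genes of 1.40-fold, 1.72-fold and 1.72-fold. The pseudocount of 1 narrows the gap of low genes, and so that median. Among the 35 genes of its level, 11 had a wider gap at 128-cell, 3 at 256-cell and 2 at 512-cell. The gap ran the same way at each stage. Among genes that rose, the gap at labelled 512-cell varied. There lft2 stood at 65.5 and 10.4 FPKM, wnt11f2 at 78.1 and 14.2 FPKM and her11 at 201 and 46.5 FPKM. Closer were grhl3 (237 and 81.7 FPKM), irx7 (240 and 109 FPKM) and marcksl1b (164 and 60.3 FPKM). So were blf (161 and 77.5 FPKM), GADD45B (127 and 62.9 FPKM) and drll.3 (102 and 45.1 FPKM). All but lft2 were picked for likeness to aplnrb over the libraries, gap included, so a wide gap among them is no support.

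**Figure D5:**
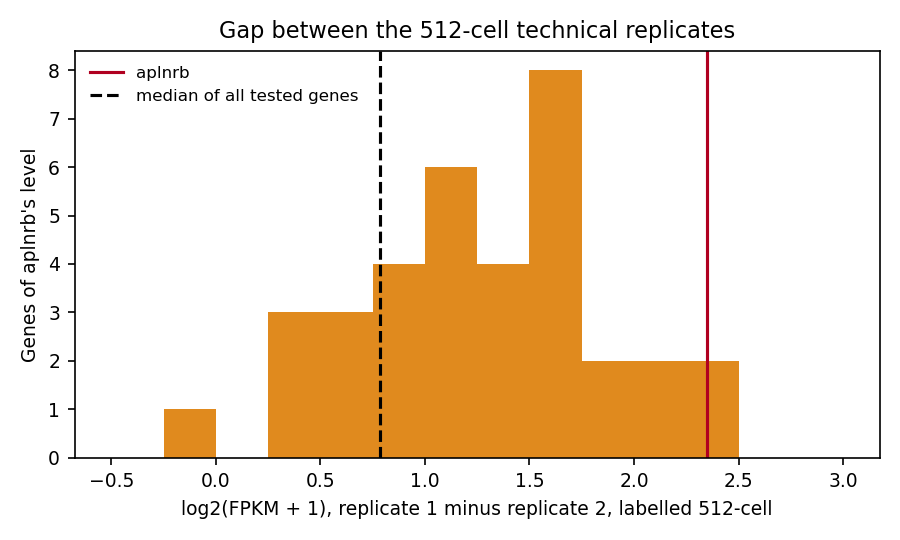
Histogram of the gap between the labelled 512-cell technical replicates, replicate 1 minus replicate 2 in log2(FPKM + 1), for the 35 genes of the level of aplnrb. aplnrb (red line) lies at 2.35, where 2 of the 35 are higher; the dashed line is the median of all 7438 tested genes.

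The libraries as a whole set the frame for these values. Between 4035 and 7416 IDs were at 1 FPKM or more, fewest in the unlabelled 512-cell library, and median FPKM ran from 0.836 to 3.21. No read counts were used, so depth is unknown and no counting interval is given. Of 10 markers of the early embryo and its maternal RNA, 7 had values, all above 1 FPKM in every library, with a sum between 114 and 711 FPKM; of 12 markers of differentiated tissue 0 had values here. nanog, a maternal pluripotency factor, was the highest, at 210 and 172 FPKM at labelled 128-cell and 503 and 290 FPKM at 512-cell, and 0 of the 7 passed between these stages by limma (0 at an unadjusted p under 0.05), which is no departure from the 4.96% of all tested genes called higher. Of the others, the germ line gene DAZL had a change of -0.50, the cyclin CCNB1 of -0.53 and the transcription factor sox19b of -0.03 (limma adjusted p = 1 for each). The summed markers were higher in labelled replicate 1 than in replicate 2 at each stage, as aplnrb was, and so was the median FPKM of all IDs. That median was 2.59 and 1.62 FPKM at 128-cell, 3.21 and 1.49 FPKM at 256-cell, and 3.1 and 1.42 FPKM at 512-cell. What part either has in the gap of aplnrb was not tested.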

How the data were processed

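RNA of 9 libraries was analysed: 2 labelled technical replicates and 1 unlabelled library at each of 3 stages. Values deposited by the authors are FPKM. The submitters' processing notes name CASAVA 1.7, TopHat 1.3.3, Cufflinks 2.0.2 and build Zv9. The annotation version, strand handling, treatment of reads with several matches and scaling between libraries are not given in the sources used here. A gene table holds FPKM per library, per the file headers, and others hold 1 value per stage for genes and for transcripts. Gene symbols were matched for 7028 of 8969 IDs.

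A gene was tested if it reached 1 FPKM in 2 or more libraries of the fit. Tests ran on log2(FPKM + 1) with limma 3.58.1 in R 4.3.3 (mean-variance trend, two-sided, Benjamini-Hochberg over all tested genes, threshold 0.05); the pseudocount of 1 shrinks changes of low genes. Stage comparisons used the 6 labelled libraries. The script was tested on simulated data. Alternatives were the pseudocount, scaling, filter, trend, replicate block, a 4-library fit and leaving out each library.

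The gene and the lists were chosen with earlier results of these data known. Named are the apelin signalling genes, the listed genes that passed from 128-cell to 512-cell or had the 4 smallest p-values of their list, the 8 most like aplnrb, and the 3 nearest above and below its level, clone-type symbols left out. ARRB2, LPAR2, GNG5, ACVR1B, ACVR2A, ACVR2B, SMAD2, GATA5, 1 FZD7 ID and 1 GNAI2 ID were named after their values were seen. Positions and sequences were not analysed here.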

Additional observations from a re-analysis of the deposited data

How the results depend on the processing

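The change of aplnrb from 128-cell to 512-cell kept its sign in each alternative. It did not pass with 1 nuclear total (5.16), a scaling that set the labelled replicates of aplnrb further apart. With 1 library left out it ranged from 4.56 to 6.11. The first step passed with the replicate block (2.94, adjusted p = 0.000203) and with only the 4 libraries of its stages (2.96). The second passed with the block (2.37). Leaving out 1 library gave 2.15 to 3.72 for the first step and 1.56 to 3.15 for the second. Their difference ran from -2.16 to 0.978, positive without 256-cell replicate 1 (0.978) or 512-cell replicate 2 (0.195). Labelled against unlabelled over 3 stages did not pass with size factors (3.65, range 2.67 to 4.75 with 1 library left out). At 128-cell it passed with the block (2.13, range 1.04 to 1.89). At 256-cell it passed with the block (4.58) and a pseudocount of 0.1 (5.81, range 3.08 to 4.72). At 512-cell it did not pass without the trend (5.62, range 4.84 to 6.42). Its growth passed with the block (4.14, range 3.36 to 4.93). The block with size factors, chosen after seeing the data, passed for both steps (2.96 and 2.42), 128-cell (1.72), 256-cell (4.57) and the growth (4.72).

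Whether replicate numbers pair the labelled libraries was not settled. Deviations from the stage mean correlated across genes at 0.739, 0.762 and 0.66 between stages, and at 0.735, 0.74 and 0.663 with size factors. Libraries with the same number thus deviated alike across stages. With 2 libraries per stage replicate 2 mirrors replicate 1, and what a number shares is not labelled, so the block is given here only. It takes unnumbered unlabelled libraries as replicate 1, which shifts label differences at 1 stage. The average over 3 stages has no blocked fit.

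From 128-cell to 512-cell the 369 became 825 with the block, 558 with size factors, 1004 with both, 187 without the trend and 1 with 1 nuclear total (all-gene median -0.81). In the first step the 0 became 242 with the block, 84 with size factors, 82 with a pseudocount of 0.1, 46 without the trend, 144 with 4 libraries and 2 to 85 with 1 library left out; in the second, 382 with the block, 221 with size factors, 545 with both and 0 to 135. Over 3 stages the 988 became 1543 with 1 nuclear total. Counts at 1 stage moved most with the block, so coded: 6 to 1020, 87 to 3613 and 303 to 5208 in stage order, and 0 to 2922 for the growth. The coding's part was not tested.

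With 1 nuclear total 0 of the named genes passed from 128-cell to 512-cell, foxa3 and chrd not being tested there. Without the trend FZD7, GSC, chrd, foxa3, lft2, ndr1 and wnt11f2 did not, and GSC did not without the filter. Of genes with no call, sox19b turned to 0.00549 with a pseudocount of 0.1 and TENT5C to -0.341 with 1 nuclear total; leaving out 1 library gave -0.253 to 0.127 for sox19b, -0.909 to 0.688 for LAMP2, -0.749 to 0.179 for HNRNPAB, -0.644 to 0.136 for PAIP2B, -0.308 to 0.354 for TENT5C and -0.279 to 0.0378 for gna11b. A level window of 1, also set on the 512-cell value, gave 105 genes, 25 of them called. By Pearson correlation 1 of the 8 genes most like aplnrb was shared (her11).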
